A study of Mus musculus with 4 samples.

Results

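Nuclei carrying many transcripts of Pmch, the gene for the precursor of melanin-concentrating hormone (MCH), were examined in single-nucleus RNA sequencing of the mouse hypothalamus. They were selected on the measured Pmch count: every nucleus that the authors annotated as Neurons_1, their main neuronal cluster, and that held at least 20 Pmch UMIs in the raw matrices, whatever its sub-cluster. A UMI (unique molecular identifier) tags 1 captured transcript. The rule found 365 nuclei among 35756 Neurons_1 nuclei and 56386 annotated nuclei in all, and they are called Pmch-high nuclei below. Pmch therefore defines these nuclei, and its values are given as a description without a test.

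The study compared hypothalami of wild-type (WT) mice with those of TRα1+m mice, which are heterozygous for the R384C point mutation of thyroid hormone receptor α1. The mutant receptor binds the hormone less well, so that brain cells respond poorly at normal hormone levels. Both groups were adult males on the C57/BL6NCr background, and no treatment is named for them. The mutation is present in every cell from conception on, so an effect in the adult cannot be told apart from one laid down in development, and a count of Thra, the gene for the receptor, does not show which allele was transcribed. Each genotype had 2 libraries from independent repeats of the experiment, and each library was 1 pool of nuclei from the hypothalami of 3 mice, so n = 2 per genotype and the mice within a pool could not be separated.

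MCH neurons lie in the lateral hypothalamus and zona incerta, intermingled with the orexin neurons, and their peptide promotes feeding, energy storage and sleep. They are known to form a population that also makes the peptide CART and the neurokinin 3 receptor, encoded by Cartpt and Tacr3, and another that does not. Most of them express the vesicular glutamate transporter Slc17a6 and the GABA-synthesizing enzyme gene Gad1 but little of the vesicular GABA transporter Slc32a1.

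The WT libraries held 55 Pmch-high nuclei in repeat 1 and 146 in repeat 2, and the TRα1+m libraries held 75 and 89. After Pmch was removed, these nuclei contributed 315376, 778613, 437180 and 572316 UMIs in the same order, 2103485 in all. The median Pmch-high nucleus held 5551 UMIs with Pmch counted and 5176 without it, against 4374 in the other Neurons_1 nuclei. By library, in the same order, the median without Pmch was 5079, 5142.5, 5176 and 5691 UMIs. The other nuclei held 3984, 5227, 3790 and 4820, so in WT repeat 2 the Pmch-high nuclei were not the deeper ones. Whether the threshold on UMIs drew on deeper nuclei was not tested. Of 67719 distinct barcodes, 471 occurred in more than 1 library. Of the 365 Pmch-high nuclei, 10 had a barcode seen in another library, and 0 barcodes marked a Pmch-high nucleus in both.

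The Pmch level differed more between the repeats than between the genotypes. The median Pmch count per nucleus was 103 UMIs in WT repeat 1, 420.5 in WT repeat 2, 101 in TRα1+m repeat 1 and 369 in TRα1+m repeat 2. The highest counts in a single nucleus were 1761, 2869, 2002 and 4541 UMIs. In both genotypes the repeat 2 library lay above the repeat 1 library, and the 2 genotypes overlapped. Pmch made up 2.42% and 9.43% of all UMIs of these nuclei in the WT libraries and 2.85% and 7.70% in the TRα1+m libraries. Nuclei with 1000 or more Pmch UMIs numbered 1 in WT repeat 1, 31 in WT repeat 2, 2 in TRα1+m repeat 1 and 15 in TRα1+m repeat 2. The repeat and whatever else differed between these libraries cannot be told apart, and the comparisons between kinds of nuclei were made within libraries.

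**Figure D1:**
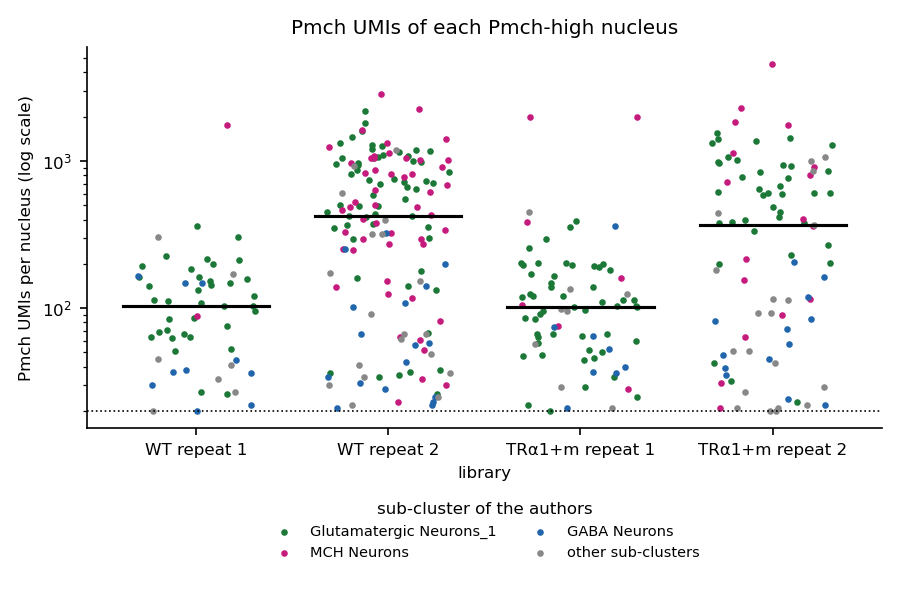
Pmch UMIs in each Pmch-high nucleus (log axis) by library, with points coloured by the authors' sub-cluster, the horizontal line at the library median and the dotted line at the threshold of 20. The medians of 420.5 and 369 UMIs in the repeat 2 libraries stand above the 103 and 101 UMIs of the repeat 1 libraries.

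The threshold fell in a thinly filled stretch of the distribution. Among the Neurons_1 nuclei 543 held 5 to 9 Pmch UMIs, 101 held 10 to 19, and 73 held 20 to 49. Just inside the threshold 5 nuclei had 20 UMIs and 6 had 21, and just outside it 3 nuclei had 19 UMIs and 1 had 18. Single Pmch UMIs were spread over all cell types and are read as background: at least 1 was found in 58.9% of the other Neurons_1 nuclei (median depth 4374 UMIs) and in 56.7% of the 20630 annotated nuclei outside Neurons_1 (median depth 1833 UMIs). At least 20 were found in 60 of those outside nuclei, or 0.291% (exact 95% binomial interval 0.222 to 0.374%), against 2.99% (2.58 to 3.44%) of the nuclei in the sub-cluster Glutamatergic Neurons_1. The intervals cover counting error only.

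The Pmch-high nuclei did not fall into a single sub-cluster of the authors' annotation. Glutamatergic Neurons_1 held 186 of them, MCH Neurons 77, GABA Neurons 48, and 54 were spread over further sub-clusters. Only 3.69% (2.93 to 4.59%) of the 2085 nuclei annotated MCH Neurons passed the threshold. In GABA Neurons the share was 0.319% (0.235 to 0.423%) of 15042 nuclei, within the interval of the share outside Neurons_1. Since the clusters were built from these same counts, the differences between sub-clusters in the following paragraphs are descriptions without a test.

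The 186 Pmch-high nuclei in Glutamatergic Neurons_1 were deep and carried the identity genes of MCH neurons. Their median depth was 7008.5 UMIs and 2919 genes, and Pmch took a median 3.23% of their UMIs. Levels are given as CPM, counts per 1000000 UMIs after Pmch and the orexin gene Hcrt were taken out, pooled over the 4 libraries. Tacr3 stood at 253 CPM in them against 7.5 in the other Neurons_1 nuclei. The homeobox gene Otx1 stood at 34.9 against 0.4 CPM, and the zinc finger gene Zic1 at 53.1 against 10.9 CPM. At least 1 Tacr3 UMI was seen in 53.8% of these nuclei, and in 19.9% after each nucleus was thinned to 1000 UMIs. Among the other Neurons_1 nuclei these shares were 2.71% and 0.625%.

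The 77 in MCH Neurons were shallow and dominated by Pmch. Their median depth was 1970 UMIs and 833 genes, Pmch took a median 28.7% of their UMIs, and mitochondrial transcripts took 2.14% against 0.536% in the Glutamatergic Neurons_1 members. WT repeat 2 supplied 51 of the 77, and WT repeat 1 supplied 2. Their identity genes were nonetheless high: Cartpt stood at 9287 CPM, Tacr3 at 312 CPM, Nptx1, which encodes a neuronal pentraxin, at 350 CPM and Otx1 at 18.9 CPM, the last from 4 UMIs. Tacr3 stood at 4.7 CPM in the 2008 nuclei of the same sub-cluster that missed the threshold. Those 2008 nuclei showed the endothelial genes Flt1 and Cldn5 at 725 and 343 CPM, and 426 of them (21.2%) had UMIs of at least 2 vascular marker genes. Among the 77 the vascular genes were lower but present, with Flt1 at 175 CPM, Cldn5 at 114 CPM and 5 nuclei with at least 2 such genes, whereas none of the 186 in Glutamatergic Neurons_1 had 2. The 6 vascular markers summed to 435 CPM in the 77 and to 6.82 CPM in the 186, where Flt1, Cldn5, Pdgfrb and Vtn were at 0. In the 77 the vascular UMIs seen came from the repeat 2 libraries, at 250 CPM in WT and 835 CPM in TRα1+m. Without TRα1+m repeat 2 the sum was 159.7 CPM. Both repeat 1 libraries were at 0. WT repeat 1, however, held 2 of the 77 nuclei with 2214 UMIs besides Pmch. That is too few to tell its level apart from those of repeat 2. The 5 astrocyte markers summed to 846 CPM in the 77, to 180 CPM in the 186 and to 273 CPM over all Pmch-high nuclei. In the same order, 5 oligodendrocyte markers summed to 875, 286 and 408 CPM, and 4 microglia markers to 113, 44.0 and 49.9 CPM. The comparisons below were also run without this sub-cluster.

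The 48 in GABA Neurons carried less of the identity genes than the Glutamatergic Neurons_1 members. Their Tacr3 level was 20.8 CPM, from 5 UMIs, against 8.13 CPM in the GABA Neurons nuclei below the threshold, and 10.4% of them (3.47 to 22.7%) had a Tacr3 UMI. After thinning none of the 48 had one, which allows a share of up to 7.40%. Otx1 and Zic1 had no UMI. A count of 0 allows up to 12.5 CPM, so their Zic1 level could not be told apart from the 10.9 CPM of the other Neurons_1 nuclei. Gad2 and Slc32a1, which mark GABA neurons, stood at 241 and 166 CPM, close to the 266 and 145 CPM of the GABA Neurons nuclei below the threshold and above the 43.2 and 22.7 CPM of the Glutamatergic Neurons_1 members. Pcsk2, which encodes a prohormone convertase, stood at 394 CPM in them, level with the 395 CPM of the other Neurons_1 nuclei and below the 2553 CPM of the Glutamatergic Neurons_1 members. Their median Pmch count was 46.5 UMIs. Cartpt stood at 635 CPM in them against 112 CPM in the GABA Neurons nuclei below the threshold. In the 54 in further sub-clusters Tacr3 stood at 57.3 CPM and Otx1 had 1 UMI. The label of MCH neurons therefore has its markers in the members in Glutamatergic Neurons_1 and in MCH Neurons, while in GABA Neurons the Tacr3 level lay below that of both. The source of the Pmch transcripts in nuclei of other sub-clusters, and in the 60 nuclei outside Neurons_1, was not tested.

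**Figure D2:**
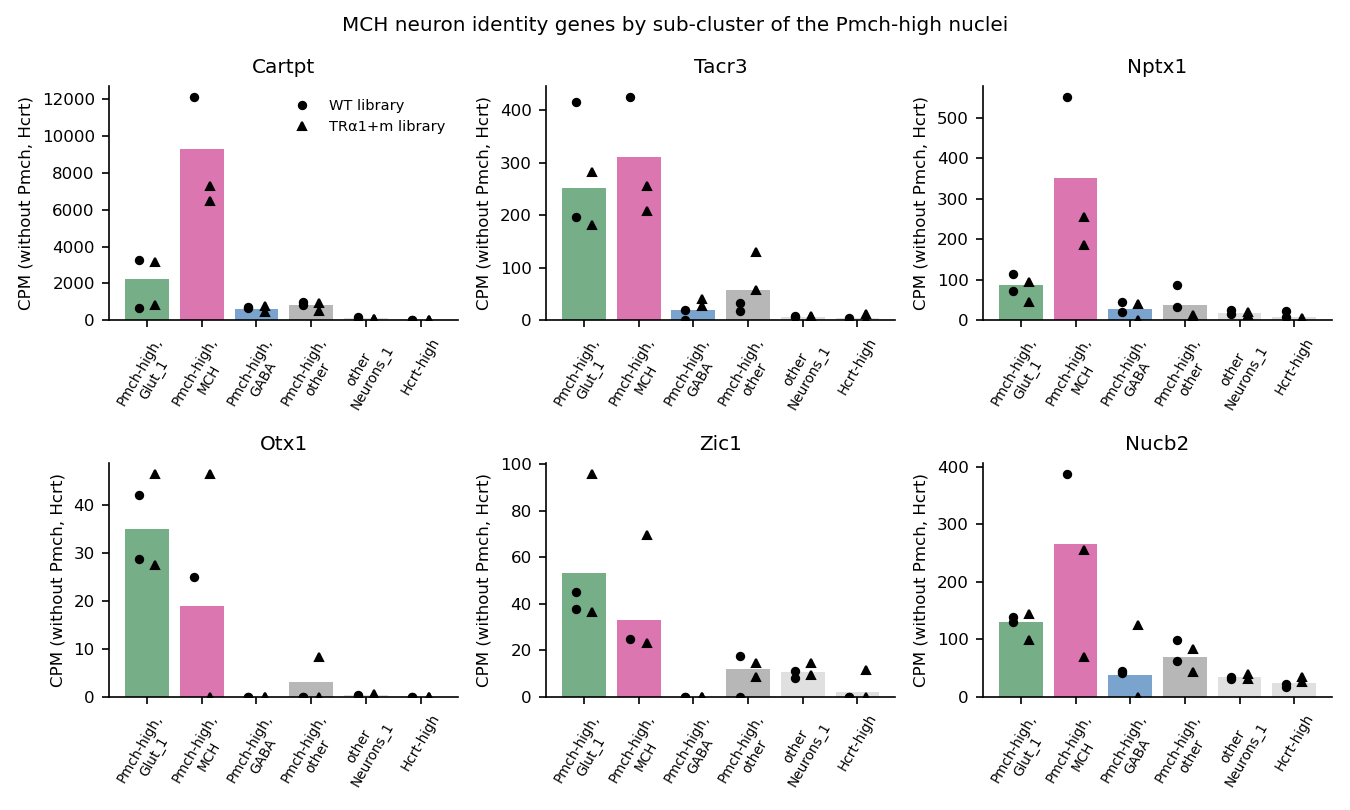
Pooled level of 6 MCH neuron identity genes (CPM, bars) in Pmch-high nuclei by sub-cluster, in the other Neurons_1 nuclei and in Hcrt-high nuclei, with points for the single libraries (none drawn for fewer than 5 nuclei, as in WT repeat 1 of MCH Neurons). Tacr3 reaches 253 and 312 CPM in the Glutamatergic Neurons_1 and MCH Neurons members and 20.8 CPM in the GABA Neurons members.

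Placement varied with the library. Of the WT Pmch-high nuclei, 65.5% and 40.4% lay in Glutamatergic Neurons_1, and of the TRα1+m ones 69.3% and 43.8%, repeat 1 before repeat 2. MCH Neurons took 3.64% and 34.9% in WT and 9.33% and 19.1% in TRα1+m. The share in Glutamatergic Neurons_1 was higher in TRα1+m within both repeats, while for the further sub-clusters both WT libraries lay between the 10.7% and 22.5% of TRα1+m. The genotypes overlapped for each sub-cluster (exact permutation tests that do not use the pairing of repeats, two-sided p from 0.667 to 1, where 2 against 2 libraries cannot go below 0.333).

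Against the other 35391 Neurons_1 nuclei of the same libraries, the Pmch-high nuclei had more mRNA for most of the MCH identity genes and for the convertase Pcsk2. They had less for most other hypothalamic peptides tested and for 11 of 31 transcription factors. Of 33 receptors, 6 were higher and 8 lower. The raw UMIs were summed per library over each kind of nucleus and tested with edgeR with the library as a block (8 sums), where the genes other than Pmch took no part in the selection. Of 17287 genes tested, 1600 (9.26%) passed at an adjusted p of 0.05, 691 higher and 909 lower in Pmch-high nuclei, and the median log2 fold change was -0.08. With RLE scaling the split was 815 higher and 709 lower.

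Of the 9 identity genes tested besides Pmch, 7 were higher and 2 lower, with a median log2 fold change of 1.90, beside the 9.26% of all genes. Cartpt stood at 1094, 3513, 1420 and 2845 CPM in the Pmch-high nuclei of WT repeats 1 and 2 and TRα1+m repeats 1 and 2, and at 63.5, 188, 66.4 and 101 CPM in the other nuclei. The 2 kinds of nuclei did not overlap in any library, and Cartpt was higher in repeat 2 of both genotypes and in both kinds of nuclei. Its log2 fold change was 4.42 ± 0.098 (SE). Cartpt lies at chr13:99898489-99901091 on the minus strand (GRCm38) and Tacr3 at chr3:134829007-134934579 on the plus strand.

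Tacr3, the receptor for neurokinin B, stood at 320, 172, 238 and 147 CPM in the Pmch-high nuclei and at 6.38 to 8.17 CPM in the other nuclei. That is 219 ± 77.5 against 7.46 ± 0.833 CPM (mean ± SD, n = 4), a log2 fold change of 4.82 ± 0.13 (edgeR adjusted p = 1.42e-218). Otx1 stood at 31.7, 20.5, 36.6 and 15.7 CPM against less than 1 CPM in each library of the others, with a log2 fold change of 6.15 ± 0.41. Both genes were higher in repeat 1 than in repeat 2, the opposite of Cartpt, and neither overlapped between the kinds of nuclei. Nptx1 rose by 2.23 ± 0.15 on the log2 scale, Zic1 by 1.90 ± 0.22, and Nucb2, which encodes the precursor of the anorexigenic peptide nesfatin-1, by 1.82 ± 0.13.

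Transmitter genes moved less. Slc17a6, the vesicular glutamate transporter, stood at 111 ± 38.1 CPM against 150 ± 36.8 CPM, a log2 fold change of -0.40 ± 0.12 (edgeR adjusted p = 0.00894). Gad1 was higher, at 92.7 ± 29.8 against 70.9 ± 12.6 CPM (0.42 ± 0.13, adjusted p = 0.0139, higher in 3 of 4 libraries by CPM). These 2 calls were not stable: Slc17a6 did not pass without WT repeat 1 (-0.35, adjusted p = 0.0719) or WT repeat 2 (-0.40, adjusted p = 0.0774), and Gad1 did not pass without WT repeat 2 (0.38, adjusted p = 0.174) or TRα1+m repeat 2 (0.35, adjusted p = 0.212), nor once the nuclei in MCH Neurons were left out. Slc32a1 and Gad2 were lower by 1.08 ± 0.16 and 1.11 ± 0.13 on the log2 scale. Of the 12 transmitter genes tested 1 was higher and 5 lower (median -0.72), beside the 9.26% of all genes. The cannabinoid receptor gene Cnr1 (-1.12 ± 0.19) was also lower.

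When both groups were restricted to Glutamatergic Neurons_1, 2404 of 13331 genes (18%) passed, 1076 higher and 1328 lower. The identity genes kept their directions there: Cartpt rose by 4.38 ± 0.35, Tacr3 by 5.39 ± 0.53 and Otx1 by 6.64 ± 0.45 on the log2 scale. Gad1 was higher within this sub-cluster, at 95.1 ± 39.7 against 28.7 ± 3.54 CPM (1.78 ± 0.18), and Slc17a6 lay at 80.3 ± 31.8 against 259 ± 72.4 CPM (-1.58 ± 0.14). Slc32a1 and Gad2 did not pass within it, at 0.18 ± 0.30 (adjusted p = 0.765) and -0.14 ± 0.20 (adjusted p = 0.740). This restriction was chosen after the data had been seen.

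Other hypothalamic peptides were mostly lower. Of 25 tested, 1 was higher (Nucb2) and 15 were lower, with a median of -1.03, beside the 9.26% of all genes. Pomc, the precursor of α-MSH, stood at 12.7, 14.1, 11.4 and 3.49 CPM in the Pmch-high nuclei and at 34.3, 124, 32.9 and 100 CPM in the others (-3.00 ± 0.23). The groups did not overlap, and the others followed the repeat while the Pmch-high nuclei did not. Somatostatin (Sst, -1.99 ± 0.18), vasopressin (Avp, -1.03 ± 0.10), neuropeptide Y (Npy, -1.32 ± 0.20) and the neurokinin B precursor Tac2 (-1.46 ± 0.21) were also lower. Within Glutamatergic Neurons_1, Pomc (-1.25, adjusted p = 0.0726) and Npy (-0.98, adjusted p = 0.0687) did not pass, and Tac2 lay further down at -4.22 ± 0.43. With a threshold of 10 Pmch UMIs, Pomc (-0.94, adjusted p = 0.774), Avp (-0.36, adjusted p = 0.799) and Sst (-1.56, adjusted p = 0.316) did not pass.

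The machinery that makes and packs peptides was split. Of 20 genes of dense-core vesicles and peptide processing 6 were higher and 4 lower (median 0.04), beside the 9.26% of all genes. Within Glutamatergic Neurons_1, where 18% of all genes passed, 3 were higher (Pcsk2, Pam and Ssr4) and 8 lower, Pcsk1, Pcsk1n, Scg5, Cpe, Chgb, Scg2, Vgf and Qpct (median -0.19). Pcsk2, which cleaves peptide precursors at paired basic residues, stood at 2844, 1775, 2498 and 1281 CPM in the Pmch-high nuclei and at 463, 392, 391 and 323 CPM in the others. All 4 libraries showed the difference, and the lowest Pmch-high value was above the highest of the others. Its log2 fold change was 2.39 ± 0.09 (edgeR adjusted p = 6.72e-151). Ssr4, a subunit of the translocon-associated complex of the endoplasmic reticulum, rose by 0.86 ± 0.10. The granin gene Scg2 (-0.57 ± 0.099) and Scg5, which encodes the 7B2 chaperone of the Pcsk2 enzyme (-0.36 ± 0.096), were lower.

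Among 33 receptors for peptides, amines and metabolic signals 6 were higher and 8 lower (median -0.58), beside the 9.26% of all genes. The serotonin receptor gene Htr2c stood at 837, 659, 631 and 675 CPM in the Pmch-high nuclei and at 385 to 481 CPM in the others (0.73 ± 0.089). The oxytocin receptor gene Oxtr was rare but higher, at 10.2 ± 2.76 against 1.87 ± 0.537 CPM (2.36 ± 0.48, adjusted p = 2.19e-05). The adrenergic receptor gene Adra2a rose by 1.47 ± 0.36, but did not pass within Glutamatergic Neurons_1 (1.03, adjusted p = 0.0903). The calls of the histamine receptor gene Hrh3 (0.82 ± 0.26) and of Igf1r (0.33 ± 0.10) did not hold with every library left out. Hrh3 did not pass without WT repeat 1 (0.66, adjusted p = 0.188), WT repeat 2 (0.96, adjusted p = 0.0558) or TRα1+m repeat 2 (0.83, adjusted p = 0.0567). Igf1r did not pass without WT repeat 2 (0.31, adjusted p = 0.146) or TRα1+m repeat 2 (0.20, adjusted p = 0.500). Within Glutamatergic Neurons_1 Hrh3 (1.53 ± 0.34) and Igf1r (0.69 ± 0.11) passed. There 6 of 26 receptor genes tested were higher and 9 lower, beside the 18% of all genes. The orexin receptor gene Hcrtr2 stood at 19.5 ± 14.6 against 54.3 ± 4.83 CPM (-1.29 ± 0.20), and the µ-opioid receptor gene Oprm1 was lower by 0.90 ± 0.14 on the log2 scale. The leptin receptor gene Lepr had 13 UMIs in all Pmch-high nuclei together, the MCH receptor gene Mchr1 had 7, and the GLP-1 receptor gene Glp1r had 0, which allows up to 1.43 CPM.

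Of 31 hypothalamic transcription factors tested, 4 were higher and 11 lower (median -0.97), beside the 9.26% of all genes. Besides Otx1 and Zic1, the ventral forebrain factor Nkx2-1 was higher at 38.2 ± 16.5 against 10.9 ± 1.98 CPM (1.78 ± 0.23), and Tcf4 rose by 0.46 ± 0.094. The nuclear receptor gene Rora stood at 437 ± 95.2 against 926 ± 68.2 CPM (-1.05 ± 0.093). Zfhx3 (-1.11 ± 0.096) and Sim1, a factor of the paraventricular nucleus (-1.31 ± 0.19), were lower too.

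Of 25 excitability genes 3 were higher and 7 lower (median -0.23), beside the 9.26% of all genes. Kcnj3, a subunit of G protein-gated potassium channels, was lower by 1.10 ± 0.11 on the log2 scale and the cation channel gene Trpc6 by 1.45 ± 0.24. The rises were smaller, and their calls did not hold with every library left out. Hcn3 (0.76 ± 0.25) did not pass when any 1 of the 4 was left out (adjusted p from 0.0621 to 0.192), with log2 fold changes from 0.74 to 0.77. Cacna1e (0.27 ± 0.089) did not pass without WT repeat 1 (0.24, adjusted p = 0.195) or TRα1+m repeat 1 (0.18, adjusted p = 0.347), nor against reference nuclei at or above the median depth (0.21, adjusted p = 0.127). Cacna1b (0.35 ± 0.095) did not pass without TRα1+m repeat 2 (0.34, adjusted p = 0.0591). Within Glutamatergic Neurons_1, where 18% of all genes passed, 5 of the 25 were higher and 8 lower. There Hcn3 (0.94 ± 0.29), Cacna1e (0.82 ± 0.089) and Cacna1b (0.51 ± 0.097) passed. Hcn3 encodes a pacemaker channel subunit, and the other two encode voltage-gated calcium channels.

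Of 20 genes of thyroid hormone action tested, 0 were higher and 1 was lower (median -0.18), beside the 9.26% of all genes. That was the coactivator gene Ncoa1 (-0.39 ± 0.10), which did not pass without TRα1+m repeat 2 (-0.35, adjusted p = 0.0738). Thra had 191 UMIs and the second receptor gene, Thrb, 446 UMIs in the Pmch-high nuclei. No gene passed among 8 for glucose sensing (median -0.09), 12 immediate early genes (median -0.37) or 10 mitochondrial transcripts (median -0.12). Within Glutamatergic Neurons_1, where 18% of all genes passed, 6 of the 10 mitochondrial transcripts were lower and 0 higher (mt-Co1, mt-Co3, mt-Atp6, mt-Nd1, mt-Nd2 and mt-Nd4, list median -0.29). Of the 7 genes that the study named for neuronal sub-clusters, a list chosen on these samples, the glutamate receptor gene Grm8 (0.71 ± 0.088) and the synaptic adhesion gene Lrrtm4 (0.69 ± 0.087) were higher.

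Markers of other cell types were counted beside the 9.26% of all genes that passed. None of 5 oligodendrocyte, 5 astrocyte, 4 tanycyte, 4 microglia and 2 pituitary markers passed. Of 5 general neuron markers 1 was higher, the microtubule regulator gene Stmn2. Of 6 vascular markers 2 were lower, Rgs5 and Vtn. The oligodendrocyte precursor markers Vcan (1.40 ± 0.20) and Lhfpl3 (0.32 ± 0.087) were higher. The call of Lhfpl3 did not hold without WT repeat 1 (0.28, adjusted p = 0.0958) or TRα1+m repeat 1 (0.24, adjusted p = 0.0871), nor when the reference was restricted to nuclei at or above the median depth (0.18, adjusted p = 0.218). The 4 precursor markers summed to 1061 CPM in the Pmch-high nuclei and 868 CPM in the others, nearly all of it from Lhfpl3. Within Glutamatergic Neurons_1, where 18% of all genes passed, 1 of 5 oligodendrocyte markers (Mbp, -0.45 ± 0.13) and 1 of 5 astrocyte markers (Slc1a2, -0.46 ± 0.14) were lower, and 3 of 5 neuron markers were higher, Syt1 (0.67 ± 0.080), Snap25 (0.28 ± 0.086) and Stmn2 (0.41 ± 0.10).

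Outside these lists, the genes with the largest differences included the growth factor gene Igf1, at 457, 281, 368 and 177 CPM in the Pmch-high nuclei and 8.34 to 11.4 CPM in the others (4.99 ± 0.11). It was high in every library and again higher in repeat 1. Ccbe1, which encodes a secreted matrix protein, rose by 4.26 ± 0.18, the potassium channel subunit gene Kcng3 by 4.08 ± 0.22, the endocytic adaptor gene Dab2 by 4.06 ± 0.21, the oxysterol-binding gene Osbpl3 by 3.58 ± 0.13, the Wnt agonist gene Rspo3 by 3.32 ± 0.17 and Abtb2 by 3.20 ± 0.17. Mup6 rose by 6.94 ± 0.31 (56.4 ± 21.9 against 0.456 ± 0.0985 CPM). It belongs to the major urinary protein family, whose near-identical copies can share reads, so its count is uncertain. The largest falls included the microtubule-severing gene Fign (-2.08 ± 0.20), the GABA-B auxiliary subunit gene Kctd16 (-1.69 ± 0.10), Tafa1 (-1.71 ± 0.11) and the cadherin gene Cdh4 (-1.74 ± 0.12).

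Parpbp was higher by 4.41 ± 0.31 on the log2 scale but is uncertain. It lies on the minus strand at chr10:88091432-88146941 and overlaps 944 bp of Pmch, which lies on the plus strand at chr10:88091072-88092375 (GRCm38). Without the library block, 20 of the 55 named genes lost their call in this comparison: Slc17a6, Gad1, Slc32a1, Pomc, Sst, Avp, Npy, Tac2, Scg2, Scg5, Ssr4, Hrh3, Igf1r, Tcf4, Sim1, Hcn3, Cacna1e, Cacna1b, Ncoa1 and Lhfpl3. DESeq2 did not call Slc17a6, Gad1, Igf1r, Sim1, Hcn3 and Ncoa1. With a threshold of 10 Pmch UMIs the calls of Gad1, Pomc, Sst, Avp, Scg5, Hrh3, Hcn3 and Cacna1e were lost.

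**Figure D3:**
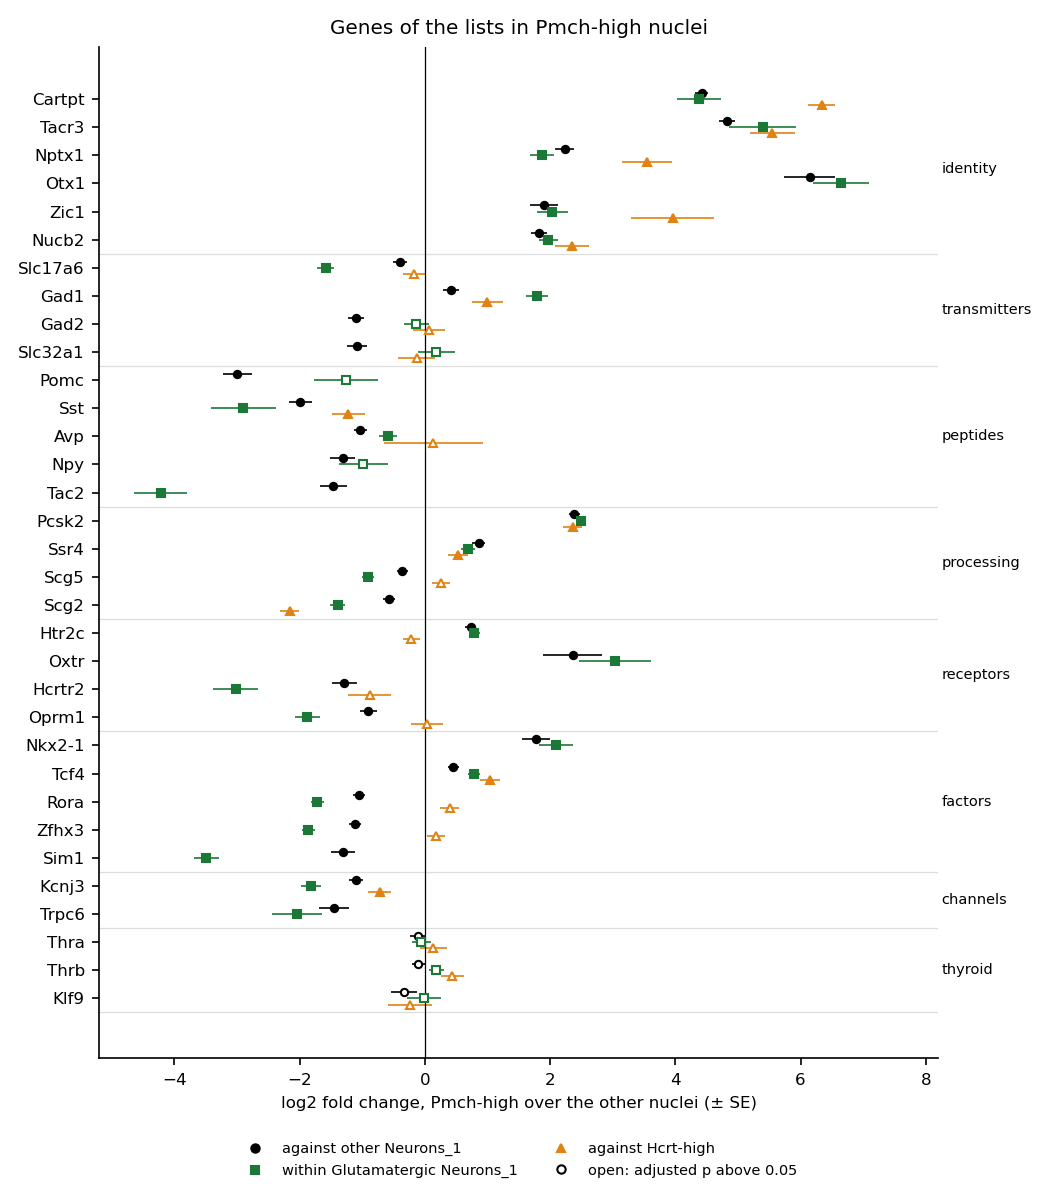
Log2 fold change (± SE) of list genes in Pmch-high nuclei against the other Neurons_1 nuclei (black circles), against the other nuclei within Glutamatergic Neurons_1 (green squares) and against Hcrt-high nuclei (orange triangles); open symbols did not pass an adjusted p of 0.05. Cartpt, Tacr3 and Pcsk2 lie to the right in each comparison, by 4.42, 4.82 and 2.39 against the other Neurons_1 nuclei.

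The orexin neurons are the closest neighbours of MCH neurons, and 153 Neurons_1 nuclei with at least 20 UMIs of Hcrt, the orexin precursor gene, and fewer than 20 of Pmch served as their counterpart (28, 65, 30 and 30 per library). The Pmch-high nuclei had more mRNA for Cartpt, Tacr3 and Pcsk2, and the Hcrt-high nuclei more for Pcsk1, Scg2 and a separate set of transcription factors. Of 6192 genes tested, 921 (14.9%) passed, 505 higher and 416 lower in Pmch-high nuclei, with a median log2 fold change of 0.01. Both Pmch and Hcrt chose the nuclei and were left out.

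Of 8 identity genes tested 6 were higher and 0 lower (median 2.95), beside the 14.9% of all genes. Cartpt stood at 23.7, 35.6, 17.7 and 42.6 CPM in the Hcrt-high nuclei, far below every Pmch-high library (6.33 ± 0.21, edgeR adjusted p = 1.81e-26). Tacr3 stood at 0, 5.08, 11.8 and 0 CPM (5.55 ± 0.36), from 4 UMIs. Nptx1 rose by 3.55 ± 0.40 and Nucb2 by 2.35 ± 0.27. Zic1 had 2 UMIs in the Hcrt-high nuclei and 81 in the Pmch-high nuclei, and Otx1 had 0, which allows up to 3.26 CPM. Gad1 was higher at 92.8 ± 29.8 against 45.5 ± 28.0 CPM (0.99 ± 0.25, adjusted p = 0.00298), but did not pass with DESeq2 (1.14, adjusted p = 0.0878).

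The 2 convertase genes went in opposite directions. Pcsk1 stood at 12.7, 51.4, 11.4 and 41.9 CPM in the Pmch-high nuclei and at 249, 272, 295 and 442 CPM in the Hcrt-high nuclei (-3.17 ± 0.24, edgeR adjusted p = 8.01e-10). Pcsk2 went the other way, at 2100 ± 704 against 415 ± 36.1 CPM (2.36 ± 0.15). Neither gene overlapped between the kinds of nuclei. Scg2 stood at 274 ± 129 against 1274 ± 429 CPM (-2.16 ± 0.15), and the granin gene Chga was higher by 1.21 ± 0.18. In all, 6 of 20 peptide processing genes were higher and 5 lower (median 0.12), beside the 14.9% of all genes.

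Lhx9 and Pdyn, which mark orexin neurons besides Hcrt, were low in the Pmch-high nuclei: Lhx9 stood at 1.97 ± 1.59 against 119 ± 24.8 CPM (-5.32 ± 0.40) and Pdyn, the dynorphin precursor gene, at 8.30 ± 6.08 against 113 ± 56.0 CPM (-3.55 ± 0.30). Nptx2, the third such marker, was lower by 2.58 ± 0.49 on the log2 scale. Of 9 transcription factors tested 3 were higher and 4 lower, beside the 14.9% of all genes. Foxp2 (-2.37 ± 0.18) and Rorb (-2.23 ± 0.17) were lower, and Tcf4 rose by 1.03 ± 0.16. Rfx4, which encodes a factor of ciliogenesis and brain patterning, stood at 8.61 ± 4.40 against 658 ± 192 CPM (-5.89 ± 0.22). The genes C1ql3, a synaptic adhesion protein (-5.53 ± 0.49), Hmcn1, an extracellular matrix protein (-4.59 ± 0.29), and Stac (-4.20 ± 0.30) were likewise low.

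Of 11 receptor genes tested 2 were higher, Tacr3 and the GABA-B receptor gene Gabbr1, and 1 was lower (median 0.03), beside the 14.9% of all genes. Outside the lists, Trhr, the receptor for thyrotropin-releasing hormone, stood at 9.51, 6.43, 6.86 and 17.5 CPM in the Pmch-high nuclei and at 160, 114, 165 and 171 CPM in the Hcrt-high nuclei (-3.78 ± 0.29). The lower list gene was the κ-opioid receptor gene Oprk1, by 1.26 ± 0.28 on the log2 scale, and it did not pass with DESeq2 (-1.27, adjusted p = 0.0715). Trpc5 (1.69 ± 0.26), Trpc4 (1.48 ± 0.31) and Kcnj6 (0.91 ± 0.19) were higher, among 6 higher and 6 lower of 20 channel genes, beside the same 14.9%. The neuronal genes Rbfox3 (1.27 ± 0.19) and Syt1 (0.70 ± 0.13) were higher as well. Igf1 stood at 321 ± 120 against 4.51 ± 6.02 CPM (5.59 ± 0.33). Kcng3 (149 UMIs) and Mup6 (109 UMIs) had 0 UMIs in the Hcrt-high nuclei of every library.

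Of the 4 oligodendrocyte precursor markers, the 2 that could be tested were higher in the Pmch-high nuclei, beside the 14.9% of all genes. Lhfpl3 stood at 1180, 929, 1190 and 900 CPM in them and at 255, 402, 277 and 378 CPM in the Hcrt-high nuclei, without overlap (1.73 ± 0.17, edgeR adjusted p = 1.67e-09). Vcan had 86 UMIs in the Pmch-high and 3 in the Hcrt-high nuclei. The markers Pdgfra and Cspg4, which define these precursors, were near 0, with 13 and 3 UMIs in the Pmch-high and 4 and 1 in the Hcrt-high nuclei. The 4 markers summed to 1061 CPM in the Pmch-high and 356 CPM in the Hcrt-high nuclei, with Lhfpl3 the most abundant in both. None of the 3 oligodendrocyte, 3 astrocyte and 1 microglia markers tested passed.

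Within the Pmch-high nuclei, Cartpt itself divided the population. It had at least 2 UMIs in 213 nuclei, 1 UMI in 26 and none in 126, and the share with at least 2 was 58.2% and 57.5% in the WT libraries and 56.0% and 61.8% in the TRα1+m libraries. The 213 Cartpt-positive and 126 Cartpt-negative nuclei were compared within libraries, with Cartpt and Pmch left out. Their median depths were 5551 and 5621.5 UMIs. Of the Cartpt-positive nuclei 12.2% lay in GABA Neurons and 22.5% in MCH Neurons, and of the Cartpt-negative ones 13.5% and 17.5%. In TRα1+m repeat 1 the shares in MCH Neurons were 14.3% and 3.23%. The median Pmch count of the Cartpt-positive nuclei was below that of the Cartpt-negative ones in the WT libraries, at 86.5 against 143 UMIs in repeat 1 and 423 against 618 in repeat 2. In the TRα1+m libraries it was above, at 109 against 85 and 413 against 116 UMIs. Of 4226 genes tested, 278 (6.58%) passed, 147 higher and 131 lower in Cartpt-positive nuclei (median -0.01). Within Glutamatergic Neurons_1 alone 304 of 3321 passed.

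Tacr3 stood at 422, 299, 381 and 214 CPM in the Cartpt-positive nuclei and at 32.6, 23.5, 72.6 and 41.3 CPM in the Cartpt-negative nuclei. Each library showed the difference without overlap, 2.90 ± 0.24 on the log2 scale (edgeR adjusted p = 9.96e-14). Nptx1 stood at 80.2, 232, 80.4 and 145 CPM against 43.5, 30.2, 20.7 and 15.5 CPM (2.52 ± 0.31), and Nucb2 rose by 1.33 ± 0.23. These were the 3 of 5 identity genes tested that passed, and 0 were lower (median 1.33), beside the 6.58% of all genes.

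More genes outside the lists tracked Cartpt. The receptor tyrosine kinase gene Alk stood at 1533 ± 279 against 184 ± 110 CPM (2.99 ± 0.19), and Kctd8, which encodes a GABA-B auxiliary subunit, at 916 ± 119 against 115 ± 39.0 CPM (2.98 ± 0.18). Adamtsl1 stood at 363 ± 50.1 against 53.7 ± 42.4 CPM (2.51 ± 0.24). The Wnt-pathway factor gene Lef1 (2.60 ± 0.32), the RNA-binding gene Rbm47 (3.67 ± 0.52) and Kcng3 (2.10 ± 0.31) were higher as well. The count of Rbm47 in Cartpt-negative nuclei was 4 UMIs, and DESeq2 gave it a fold change of 3.82 ± 0.88 on the log2 scale and no adjusted p. Among list genes Pcsk2 rose by 1.24 ± 0.12, the M-current channel gene Kcnq5 by 1.22 ± 0.18 and Syt1 by 0.83 ± 0.12. Of 19 excitability genes tested, 1 was higher (Kcnq5) and 1 lower (Kcnj3, -0.68 ± 0.21), beside the 6.58% of all genes. Kcnj3 (edgeR adjusted p = 0.0383) was lower in 3 of 4 libraries by CPM. In WT repeat 1 it stood at 166 CPM in the Cartpt-positive and 130 CPM in the Cartpt-negative nuclei. Of 7 receptor genes tested, 1 was higher (Tacr3) and 2 were lower, Oprm1 and Htr2c (-0.75 ± 0.16).

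A further set of genes was higher in the Cartpt-negative nuclei. Reln, the extracellular glycoprotein reelin, stood at 10.7, 4.74, 16.9 and 22.8 CPM in the Cartpt-positive and at 87.0, 67.1, 130 and 113 CPM in the Cartpt-negative nuclei (-2.82 ± 0.37). Nwd2 stood at 39.9 ± 10.3 against 324 ± 175 CPM (-2.80 ± 0.23). The neuregulin receptor gene Erbb4 stood at 400 ± 155 against 1569 ± 236 CPM (-1.98 ± 0.15). None of these 3 overlapped between the groups. The adenylyl cyclase genes Adcy8 (-2.32 ± 0.26) and Adcy2 (-1.55 ± 0.19), the adhesion gene Flrt2 (-2.02 ± 0.29), the vesicle-priming gene Cadps2 (-1.66 ± 0.18), Scg2 (-0.91 ± 0.17) and Lrrtm4 (-0.71 ± 0.10) were lower in Cartpt-positive nuclei. The only oligodendrocyte precursor marker tested, Lhfpl3, was also lower, at 896 ± 97.5 against 1289 ± 202 CPM (-0.52 ± 0.13). None of the 3 oligodendrocyte markers and 1 astrocyte marker tested passed. Oprm1 stood at 32.8 ± 3.80 against 86.1 ± 17.2 CPM (-1.36 ± 0.30, adjusted p = 0.00127), but did not pass with DESeq2 (-1.38, adjusted p = 0.0901).

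**Figure D4:**
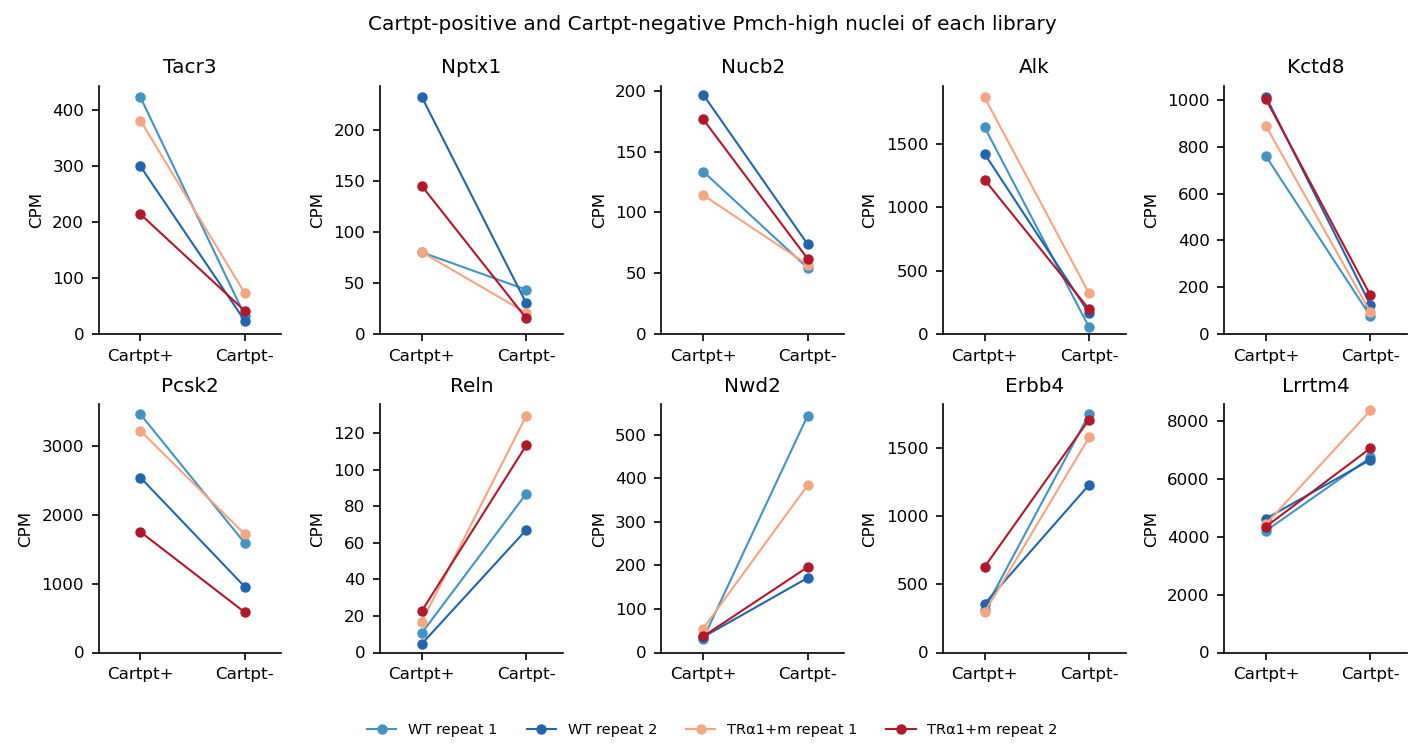
Level of 10 genes (CPM, 1 point per library) in Cartpt-positive (2 or more Cartpt UMIs) and Cartpt-negative (none) Pmch-high nuclei. Tacr3 averages 329 against 42.5 CPM, and Reln 13.8 against 99.3 CPM.

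The share of Pmch-high nuclei among Neurons_1 did not separate the genotypes. It was 0.575% in WT repeat 1 (exact 95% binomial interval 0.434 to 0.748%), 1.67% in WT repeat 2 (1.41 to 1.96%), 0.706% in TRα1+m repeat 1 (0.556 to 0.885%) and 1.30% in TRα1+m repeat 2 (1.05 to 1.60%). The values of the genotypes overlapped, and the intervals cover counting error only. The means were 1.12 ± 0.773% in WT and 1.01 ± 0.423% in TRα1+m (SD, n = 2; two-sided exact permutation test, p = 1). The log2 ratio of TRα1+m to WT was 0.30 in repeat 1 and -0.36 in repeat 2, and the repeats themselves differed by 1.54 in WT and 0.88 in TRα1+m.

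For gene expression in the Pmch-high nuclei, 0 of 7691 genes (0%) passed between the genotypes with edgeR, with 118 at an unadjusted p under 0.05, and DESeq2 likewise called 0, with 8. The repeats pair the libraries, and with the repeat as a block 7 genes passed (0.091%) with edgeR, while DESeq2 with the same block called 0, with 17 at an unadjusted p under 0.05. These were mt-Co3, mt-Co1 and mt-Atp6, which encode subunits of the respiratory chain and ATP synthase, Fth1, the ferritin heavy chain, Nap1l5, a neuronal gene of the nucleosome assembly family, Gpc5, a glypican, and AC149090.1, a gene model on the unplaced scaffold JH584304.1. The first 5 were lower and the last 2 higher in TRα1+m. In edgeR fits with this block, few library values remained to estimate the spread of a single gene. The SE and p of a gene then leaned largely on the spread shared over all genes.

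The 3 mitochondrial genes had differences of the same sign in the other Neurons_1 nuclei. The study named mt-Co3 and mt-Atp6 from these samples, so their direction is no independent evidence. In the Pmch-high nuclei mt-Co3 stood at 2438 and 3374 CPM in WT and at 1537 and 1969 CPM in TRα1+m, without overlap (-0.73 ± 0.11 with the block, adjusted p = 8.38e-05, and -0.73 ± 0.25 without it, adjusted p = 1.00). In the other Neurons_1 nuclei its difference was -0.52 ± 0.15 without the block, and the test of the difference between the 2 gave no call (interaction -0.20 ± 0.19, unadjusted p = 0.284). Transcripts of mt-Co1 stood at 1506 and 1711 against 1061 and 1073 CPM (-0.60 ± 0.12 with the block, adjusted p = 0.0101), and mt-Atp6 overlapped between genotypes at 961 and 2105 against 615 and 1548 CPM (-0.54 ± 0.12 with the block, adjusted p = 0.0466). The call of mt-Atp6 was the one of the 7 that the bias-adjusted edgeR fit with the same block did not make (-0.54 ± 0.13, adjusted p = 0.110), and without WT repeat 2 (no block) its value was 0.10 ± 0.40. The 10 mitochondrial transcripts had a median of -0.56 in the Pmch-high nuclei and -0.42 in the other nuclei, beside medians of -0.01 and 0.01 over all genes tested. The summed level of the 5 oligodendrocyte markers also lay lower in TRα1+m Pmch-high nuclei, at 511 and 449 CPM in WT and 361 and 332 CPM in TRα1+m, without overlap. In the other nuclei it overlapped, at 495 and 468 against 523 and 372 CPM. None of the 3 that were tested in Pmch-high nuclei passed (median -0.69), and their part in the mitochondrial difference was not tested.

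Nap1l5 stood at 197 and 267 CPM in WT and at 112 and 135 CPM in TRα1+m. The groups did not overlap, and the log2 fold change was -0.93 ± 0.20 with the block (adjusted p = 0.0244). Without the block it was -0.92 ± 0.26 in the Pmch-high nuclei and -0.29 ± 0.11 in the other Neurons_1 nuclei, neither of which passed, and the difference between the 2 was -0.64 ± 0.22 (unadjusted p = 0.00453, adjusted p = 1). Fth1 stood at 431 and 690 against 297 and 386 CPM (-0.72 ± 0.15 with the block, adjusted p = 0.0150). In the other Neurons_1 nuclei Fth1 was also lower, at 466 and 586 against 424 and 437 CPM. Its difference there did not pass (-0.35 ± 0.074 with the block, edgeR adjusted p = 0.261). The test of the difference between the 2 gave no call (interaction -0.36 ± 0.20, unadjusted p = 0.0655). AC149090.1 stood at 396 and 231 against 865 and 512 CPM. With the block its difference was 1.13 ± 0.14 in the Pmch-high nuclei (edgeR adjusted p = 9.01e-07) and 1.04 ± 0.050 in the other nuclei (edgeR adjusted p = 0.000104). Without the block it passed in neither, at 1.15 ± 0.37 and 1.03 ± 0.38, and the difference between the 2 was 0.09 ± 0.20 (unadjusted p = 0.661). It is among the genes that the study named from these samples, so its direction is no independent evidence. Gpc5 stood at 53.9 and 173 against 167 and 400 CPM and overlapped between genotypes. Its difference was 1.30 ± 0.20 with the block and 1.24 ± 0.57 without it (adjusted p = 1.00). Also without the block, it was -0.59 ± 0.49 in the Glutamatergic Neurons_1 members alone and -0.04 ± 0.46 with a threshold of 10 Pmch UMIs.

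Besides Nap1l5, 9 genes had the smallest unadjusted p, and none of them passed. Fkbp5, a glucocorticoid-responsive co-chaperone, stood at 15.9 and 18.0 CPM in WT (5 and 14 UMIs) and at 43.5 and 43.7 CPM in TRα1+m (19 and 25 UMIs), while the other Neurons_1 nuclei held 38.1 and 40.0 against 39.4 and 42.2 CPM (unadjusted p = 0.0104 in the Pmch-high nuclei). Its log2 difference was 1.33 ± 0.42 in the Pmch-high nuclei. Sim1 (1.76 ± 0.57), Fign (2.01 ± 0.66) and Nob1 (1.33 ± 0.43) were likewise above WT, and Mrpl20 (-1.44 ± 0.44), Ndufs8 (-1.97 ± 0.61), Rybp (-1.14 ± 0.36), Rpl23 (-0.84 ± 0.27) and Frmd3 (-0.82 ± 0.27) below it. Their adjusted p was 1.00 throughout. Several rested on few UMIs. In WT repeats 1 and 2, Sim1 had 1 and 11 UMIs, Fign 1 and 7, and Nob1 4 and 18. In TRα1+m repeats 1 and 2, Ndufs8 had 2 and 6 UMIs and Mrpl20 had 5 and 12. Non-overlapping genotypes were common at this sample size, at 1963 of the 7691 genes (25.5%), of which none passed without the block.

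The receptor carrying the mutation and its target genes gave no call. Thra stood at 92.0 and 114 CPM in WT and at 73.2 and 71.6 CPM in TRα1+m (-0.53 ± 0.29, unadjusted p = 0.0973), and in the other Neurons_1 nuclei it stood at 101 and 117 against 80.9 and 86.6 CPM. Klf9, a gene that thyroid hormone induces, stood at 38.1 and 39.8 against 25.2 and 5.24 CPM, the last from 3 UMIs (-1.43 ± 0.61, unadjusted p = 0.0425). In the other Neurons_1 nuclei Klf9 was also lower, at 39.5 and 38.9 against 31.0 and 26.5 CPM (-0.51 ± 0.16, not passing). The difference between the 2 kinds of nuclei gave no call (interaction -0.98 ± 0.46, unadjusted p = 0.0340). Of 11 genes of thyroid hormone action tested, 0 passed (median -0.07). Thrb stood at 143 and 240 CPM in WT and at 222 and 204 CPM in TRα1+m, with overlap. Cartpt overlapped between the genotypes (-0.12 ± 0.55).

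A test of whether the genotype effect differed between Pmch-high and other Neurons_1 nuclei called 0 of 18375 genes, with 606 at an unadjusted p under 0.05, and 0 with DESeq2 (151). In the other Neurons_1 nuclei alone 0 of 19894 genes passed between the genotypes with edgeR without the block, with 190 at an unadjusted p under 0.05. With the repeat as a block, a fit chosen after seeing the data, 3 passed (0.0151%): AC149090.1, which was above WT, and Arhgap22 (-1.57 ± 0.14) and Cadm2 (-0.37 ± 0.040), which were below it. With 1 library left out, its genotype had 1 library, and the spread came from the other genotype alone. In such fits Hcrt passed in Pmch-high nuclei without WT repeat 1 (-3.41), Gpc5 without WT repeat 2 (2.33), and Gpc5 (1.69), Oxt, Slco1a4 and Rps27 without TRα1+m repeat 1. Hcrt in the Pmch-high nuclei came mostly from WT repeat 2, with 585 of 686 UMIs, where 2 of the nuclei held at least 20 Hcrt UMIs.

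**Figure D5:**
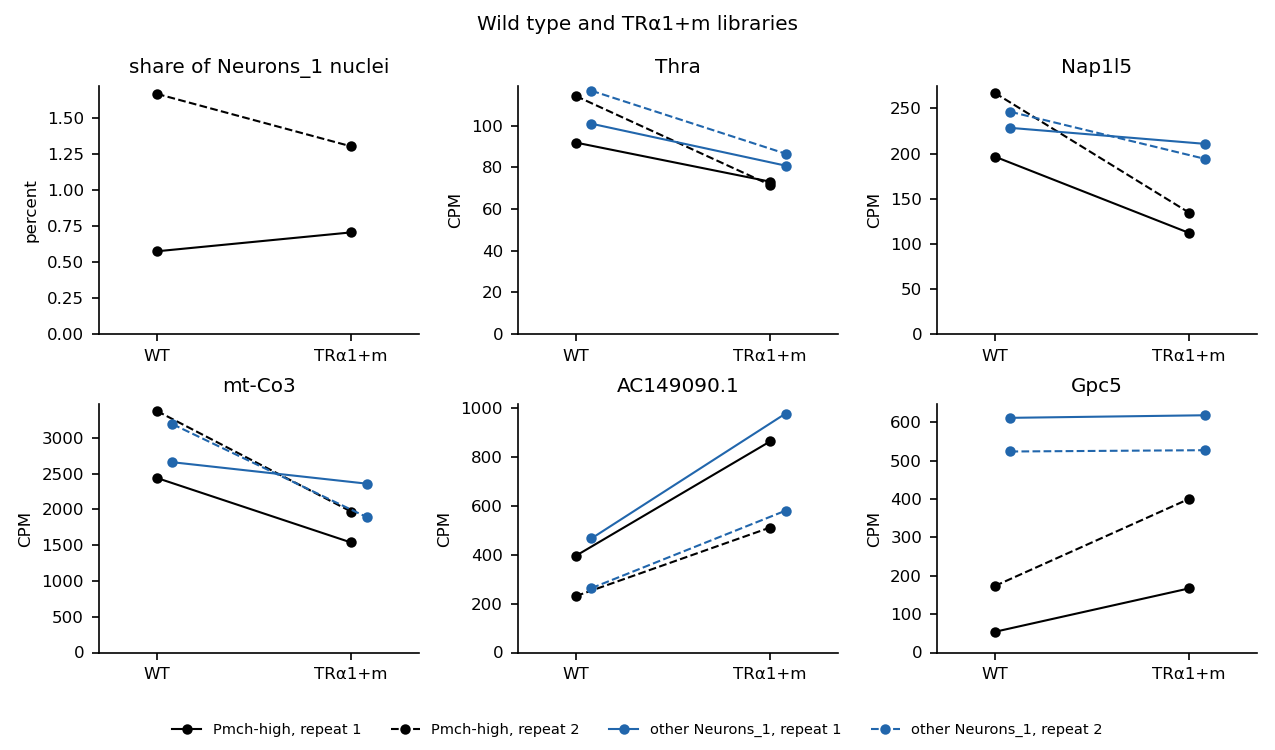
Share of Pmch-high nuclei among Neurons_1 nuclei (%) and level of Thra, Nap1l5, mt-Co3, AC149090.1 and Gpc5 (CPM) by genotype, with lines joining the libraries of 1 repeat, in Pmch-high nuclei (black) and other Neurons_1 nuclei (blue). The share runs from 0.575 to 1.67% in WT and from 0.706 to 1.30% in TRα1+m.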

How the data were processed

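Nuclei were isolated from frozen hypothalami, pooled by genotype and sequenced with 10x Genomics chemistry V3.1. The authors counted reads, introns included, with Cell Ranger 5.0.1 on mm10, and the deposited matrices hold raw UMI counts of 32285 genes in 68190 barcodes. The authors kept nuclei with at least 900 counts and 700 genes, at most 5% mitochondrial reads and a doublet score under 0.18, and deposited the clusters used here; no doublet caller was run again. The Pmch-high nuclei and the gene lists were chosen with earlier results of these data known.

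UMI counts were summed per library over each kind of nucleus, without Pmch (and Hcrt or Cartpt where they chose the nuclei). Sums were compared with edgeR 4.0.16 in R 4.3.3 (quasi-likelihood test, robust, filterByExpr, TMM, Benjamini-Hochberg adjustment over all genes tested, threshold 0.05), with the library as a block between kinds of nuclei and with genotype alone between genotypes. CPM uses the same sums. Gene positions are from the GENCODE annotation of GRCm38, the assembly that mm10 names. Shares were compared with an exact permutation test over libraries and given exact (Clopper-Pearson) 95% intervals. A count of 0 was given a limit of 3 UMIs. The pipeline was first tested on simulated data. Nuclei were thinned to 1000 UMIs for shares of nuclei with a UMI. Besides list genes, up to 10 genes per direction with the largest fold change, an adjusted p of at most 0.05, at least 50 CPM in the higher group and 1 direction in every library could be named, and for genotype the 10 smallest p-values. Genes called under other settings and genes in the values of single sub-clusters were named after their values had been seen. Values of some list genes are not reported here.

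The repeats pair the libraries, since both genotypes were processed in each repeat. Repeat differences of WT and TRα1+m correlated at r = 0.430 over 7691 genes in Pmch-high nuclei and at 0.665 over 19894 genes in the other nuclei, across genes, which are not independent replicates. Alternatives were DESeq2 1.42.0, RLE scaling, no filter, other thresholds, other sets of nuclei and leaving out each library.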

Additional observations from a re-analysis of the deposited data

Results flagged for a closer look

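Signal of the same kind appeared outside the nuclei that were compared. Of the 11804 barcodes in the matrices that the authors did not annotate, 402 held at least 20 Pmch UMIs (39, 149, 46 and 168 in WT repeats 1 and 2 and TRα1+m repeats 1 and 2). Their medians were 929.5 UMIs and 570.5 genes, and Pmch took a median 19.5% of the UMIs. Of the 402, 361 lay outside at least 1 of the authors' limits on counts, genes and mitochondrial share (306 had too few genes), and 41 lay within all 3. The MCH identity genes were present in them, with pooled levels of 4946 CPM for Cartpt, 257 CPM for Nptx1, 199 CPM for Tacr3 and 17.8 CPM for Otx1. A further 60 annotated nuclei outside Neurons_1 held at least 20 Pmch UMIs (4, 30, 8 and 18 per library). Pooled, these showed Cartpt at 1886 CPM, Tacr3 at 40.9 CPM and Otx1 at 6.8 CPM beside the astrocyte gene Slc1a2 at 1382 CPM and the myelin gene Mbp at 722 CPM.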

How the results depend on the processing

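The log2 ratio of TRα1+m to WT in the share of Pmch-high nuclei changed sign when nuclei were thinned to 2000 UMIs (0.035), when GABA Neurons and MCH Neurons were left out (0.092) and when all barcodes were used (0.0091), and ranged from -0.73 to 0.81 when 1 library was left out. With the replicate block the count of genotype genes went from 0 to 7, with the bias-adjusted fit and the replicate block to 6, in the other Neurons_1 nuclei with the replicate block from 0 to 3, and leaving out 1 library gave 0 to 4. Against the other Neurons_1 nuclei, DESeq2 called 1009 genes (609 higher and 400 lower), the fit with no replicate block 741 and the fit within Glutamatergic Neurons_1 2404, and leaving out 1 library gave 1179 to 1263. Against Hcrt-high nuclei DESeq2 called 481 genes and leaving out 1 library gave 709 to 812. For the Cartpt split these were 119 and 212 to 272. The test of a differing genotype effect called 1 to 8 genes with 1 library left out. Single genes that changed sign were Slc32a1 within Glutamatergic Neurons_1 (0.18), Gpc5 by genotype with 10 Pmch UMIs (-0.040) or in Glutamatergic Neurons_1 (-0.59), mt-Atp6 without WT repeat 2 (0.10, range -1.25 to 0.10 over the libraries left out), and Cartpt by genotype without WT repeat 2 (0.90), without TRα1+m repeat 1 (0.25; range -0.69 to 0.90), with DESeq2 and the replicate block (0.019), with 10 Pmch UMIs (0.12) and in Glutamatergic Neurons_1 (0.010). The cause was not tested. Alternatives in which nuclei were left out by sub-cluster, all barcodes were used, or DESeq2 or the bias-adjusted fit was combined with the replicate block were chosen after seeing the data. Leaving out the members in MCH Neurons ended only the calls of Gad1 and Igf1r among the genes named for the comparison with other Neurons_1 nuclei. Depth limits the rarest genes most, where a library holds fewer than 5 UMIs.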
